A study of Mus musculus with 285 samples.

Results

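Metabotropic glutamate receptors are G protein-coupled receptors that turn synaptic glutamate into slower signals inside the cell. The 6 genes described here, Grm2, Grm3, Grm4, Grm5, Grm7 and Grm8, were chosen by name from a panel of 19962 mouse genes, and each was read by a single probe. Grm5 encodes a group I receptor, which couples to Gq, phospholipase C and release of stored calcium and sits mostly on the postsynaptic side. Grm2 and Grm3 encode the group II receptors, and Grm4, Grm7 and Grm8 encode group III receptors. Receptors of both of these groups couple to Gi/o proteins, lower cyclic AMP and, at axon terminals, reduce transmitter release. In the hippocampus, mGlu2 is best known from the granule cells of the dentate gyrus and their mossy fibre terminals, and mGlu7 from the presynaptic active zone.

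The libraries came from spatial profiling of formalin-fixed brain sections of female C57BL/6J mice, given as 9 weeks old in the series text and as irradiated at 10 weeks in the study's methods. Whole brains received FLASH 1x10Gy, FLASH 3x10Gy, CONV 1x10Gy or CONV 3x10Gy, or were sham irradiated (CTRL), with 3 mice per group and 15 in all. FLASH was given at a dose rate of 5.6e+06 Gy/s and CONV at 0.09 Gy/s, the 3 fractions were 48 h apart, and tissue was collected 24 h after irradiation ended. Regions of interest lay in the dentate gyrus (DG), the hippocampal fields CA3 and CA1, the region labelled SO and the cortex, and each was divided by NeuN, GFAP and CD31 stains into neuron, astrocyte, vessel and remaining segments. Of 285 libraries, 233 passed the quality limits, and 87 of these were neuron segments: 15 each from DG, CA3 and CA1, 13 from SO and 29 from cortex, where each mouse had a pair of regions of interest. Counts of the same mouse and region were summed, so that the mouse was the replicate. Because a segment holds many cells, fewer expressing cells and less RNA per cell cannot be told apart.

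Total counts per neuron library ranged between 157915 and 2022070 with a median of 714453, and SO and CA1 were the shallowest regions. The region labels were checked against markers. All 4 tested granule cell markers were higher in DG than in CA (Prox1 by 1.61 and C1ql2 by 2.59 on the log2 scale), all 5 CA3 markers were higher in CA3 than in CA1 (Grik4 by 2.05), and all 5 CA1 markers were lower there (Wfs1 by -1.02). All 6 cortical markers were lower in CA than in cortex (Rorb by -0.19). SO neuron segments carried the CA1 markers at a summed 648 to 1113 CPM, against 646 to 1179 CPM in CA1, and no CA1 or CA3 marker was called between them. Other cells were present in the neuron segments: the 7 astrocyte markers summed to 350.1 to 648.7 CPM and the 6 oligodendrocyte markers to 345.5 to 1252 CPM over all regions, and none of the genes of any list was at 0 in every library. Background was high. The mean of 209 negative probes amounted to 48.1 ± 9.03% of the mean gene count in DG, 62.3 ± 9.89% in CA3, 59.1 ± 7.16% in CA1, 58.8 ± 5.97% in SO and 59.0 ± 6.81% in cortex (SD, n = 15 mice, 13 in SO).

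Levels are given below as TMM-scaled CPM, a count's share of its library in millionths, and include this background. They are therefore accompanied by the ratio of the count to the negative-probe mean (1 is background) and by the number of libraries above the limit of quantification, computed in each library from its negative probes (their geometric mean, multiplied by the square of their geometric SD). Levels were not compared between genes, since probes differ in efficiency.

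Grm2 was the receptor gene with the most uneven distribution over regions. It averaged 131.7 ± 31.02 CPM in DG neurons (SD, n = 15; lowest 79.3, median 132, highest 177.7), with a median ratio to the negative probes of 4.14, and exceeded the limit of quantification in 15 of 15 libraries. In CA3 it averaged 38.5 ± 8.69 CPM (27.4, 38.8 and 54.7) with a ratio of 0.884, in SO 43.3 ± 14.1 CPM (22.3, 44.5 and 75.7) with a ratio of 1.06, and in CA1 42.1 ± 10.9 CPM (22.4, 40.0 and 60.3) with a ratio of 1.04. None of the CA3, SO or CA1 libraries exceeded the limit, so that Grm2 stood at the background there. Cortex lay between, at 61.0 ± 14.8 CPM (32.4, 60.6 and 95.9) and a ratio of 1.44, with 8 of 29 libraries above the limit. The order was DG, cortex, SO, CA1, CA3, and only the steps from DG to cortex and from cortex to SO exceeded the larger SD.

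Grm3, whose receptor also responds to the peptide transmitter NAAG and is found on astrocytes as well as neurons, had its highest level in cortex. It averaged 51.1 ± 5.24 CPM in DG (41.1, 51.7 and 60.5), 49.5 ± 8.69 CPM in CA3, 48.0 ± 13.8 CPM in CA1 and 47.3 ± 10.98 CPM in SO, against 94.4 ± 16.3 CPM in cortex (66.7, 95.6 and 130.1). The ratio to the negative probes was 1.51 in DG, 1.06 in CA3, 1.22 in CA1 and 1.10 in SO, against 2.33 in cortex. It exceeded the limit of quantification in 3 of 15 DG and 21 of 29 cortex libraries and in none of the CA3, CA1 and SO libraries. The 4 hippocampal regions differed from one another by less than their SD.

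Grm5 was measured above the limit of quantification in all 87 libraries. Its mean level was 302.0 ± 63.5 CPM in CA1 (206.4, 290.5 and 422.3), 266.4 ± 45.0 CPM in SO (205.8, 271.3 and 329.4), 226.2 ± 36.9 CPM in CA3 (145.7, 236.4 and 284.4), 223.8 ± 36.2 CPM in DG (162, 230.6 and 287.8) and 192.3 ± 30.5 CPM in cortex (135.6, 200.1 and 234.8). Ranges overlapped between all neighbours in this order, and no step exceeded the larger SD. The ratio to the negative probes was 7.13 in DG and 6.80 in CA1, against 5.07 in cortex.

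Among the group III genes, Grm7 was the one most often above the limit of quantification. It averaged 148.4 ± 20.4 CPM in DG (108.5, 150.0 and 185.6), 129.3 ± 17.9 CPM in CA3, 126.9 ± 18.4 CPM in SO, 113.4 ± 14.7 CPM in CA1 and 142.2 ± 26.9 CPM in cortex (86.9, 142.9 and 184.5), and exceeded the limit in 79 of 87 libraries. Grm8 averaged 62.6 ± 14.9 CPM in DG (41.9, 58.4 and 92.2), 43.7 ± 8.99 CPM in CA3, 50.3 ± 10.8 CPM in CA1, 47.3 ± 15.5 CPM in SO and 77.0 ± 16.3 CPM in cortex (55.4, 73.9 and 113.5). It exceeded the limit in 8 of 15 DG libraries and 16 of 29 cortex libraries, but in only 1 of 13 SO libraries and in none from CA3 or CA1. The lowest SO value of Grm8, 13.1 CPM, rested on 2 counts. Grm4 exceeded the limit in 9 of 87 neuron libraries, 6 of them cortical, and averaged 48.5 ± 9.07 CPM in DG, 46.9 ± 12.01 CPM in CA3, 53.4 ± 17.2 CPM in SO, 47.9 ± 9.19 CPM in CA1 and 59.1 ± 9.05 CPM in cortex. It did not pass the filter on low values (above the limit in at least 5% of all kept libraries), so that 5 of the 6 genes were tested.

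**Figure D1:**
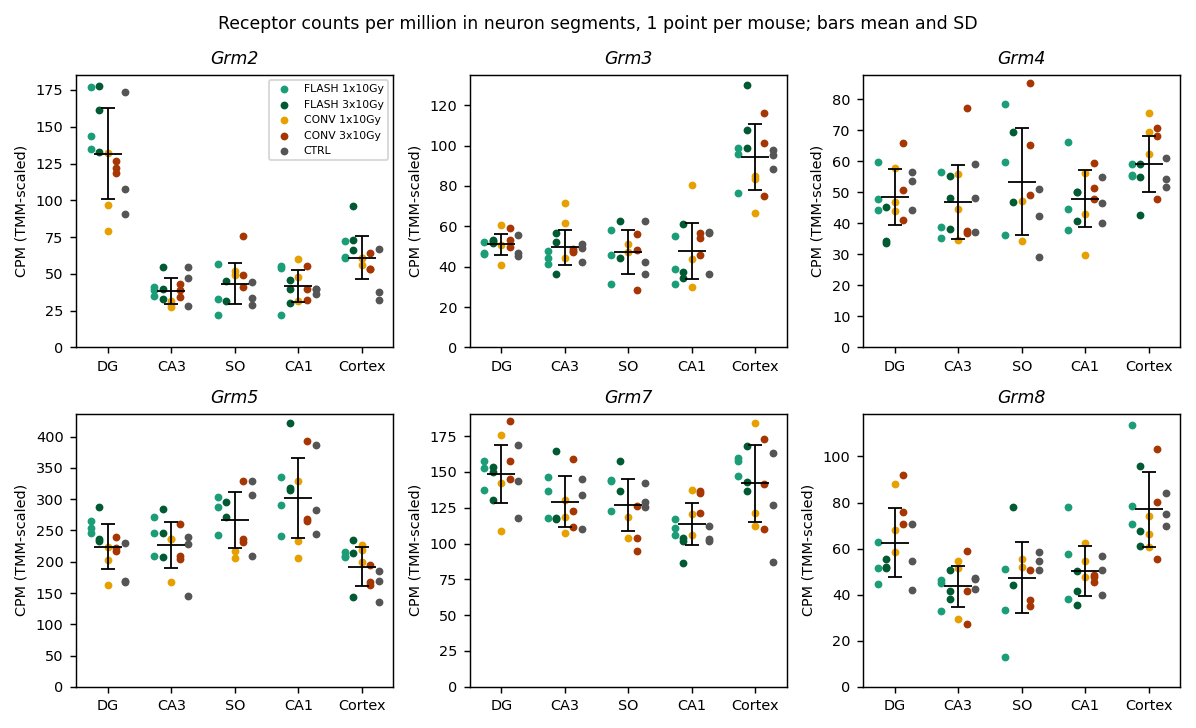
Level of each receptor gene (CPM after TMM scaling, each panel with its own vertical axis) in neuron segments of DG, CA3, SO, CA1 and cortex. Each point is 1 mouse, coloured by treatment, and the bars give the mean and SD (n = 15 mice, 13 in SO). Grm2 in DG (79.3 to 177.7 CPM) lies above every CA3 and CA1 value, Grm3 is highest in cortex, and the Grm5 ranges overlap in all 5 regions.

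**Figure D2:**
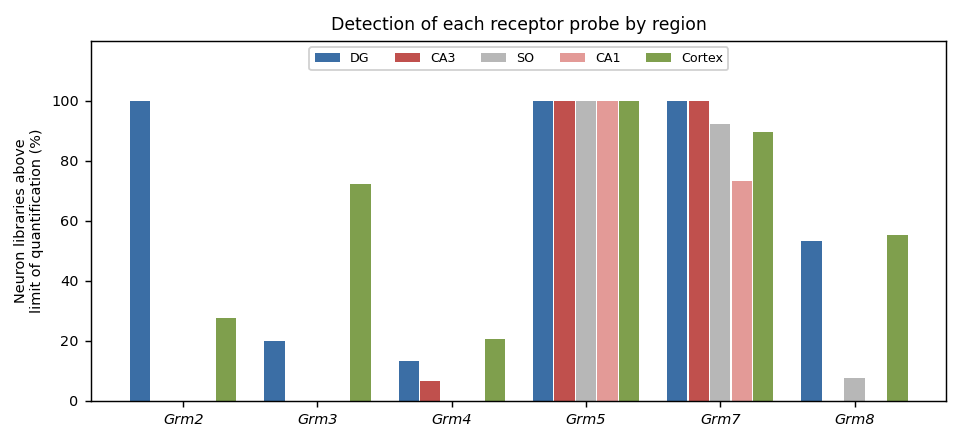
Share of neuron libraries (percent) in which each receptor gene exceeded the limit of quantification, with 1 bar per region. Grm5 is above the limit in all 87 libraries and Grm2 in 15 of 15 DG libraries but in none from CA3, SO or CA1.

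The first comparison asked how DG neurons differed from CA neurons (CA1 and CA3 averaged) of the same mice. Grm2 was 3.20-fold higher in DG (log2 difference 1.68, SE 0.0766, adjusted p = 3.27e-51), with every DG value above every CA value, and it was higher in 15 of 15 mice. Grm7 (0.30, SE 0.0647, adjusted p = 3.37e-05, higher in 14 of 15 mice) and Grm8 (0.33, SE 0.0917, adjusted p = 0.00147, higher in 12 of 15) were modestly higher, and Grm5 was modestly lower (-0.22, SE 0.0636, adjusted p = 0.00183, lower in 14 of 15). The mean Grm5 level of DG (223.8 CPM) was close to that of CA3 (226.2 CPM) and below that of CA1 (302 CPM). Grm3 had a difference of 0.09 (SE 0.0876) that did not pass the test (adjusted p = 0.398). All p-values are from edgeR's quasi-likelihood test with Benjamini-Hochberg adjustment over 10095 genes. DG and CA differed widely: 49.6% of all genes tested were called here, against 4 of the 5 receptor genes, and the median absolute log2 difference of all genes was 0.17. A gap without overlap was rarer, since 0.416% of all genes were higher in every DG sum than in every CA sum. As no CA library exceeded the limit for Grm2, its level there was not measured apart from the background and the size of the fold is not exact. With the background share as a covariate the calls of Grm7 (0.22, adjusted p = 0.095) and Grm8 (0.33, adjusted p = 0.0801) were lost, as they were in the 3 CTRL mice alone (Grm7 0.32, adjusted p = 0.153, and Grm8 0.21, adjusted p = 0.564). After subtraction of the negative-probe mean the differences were 4.91 for Grm2 (adjusted p = 5.73e-27) and 2.12 for Grm8 (adjusted p = 2.76e-06). They were -0.48 for Grm5 (adjusted p = 2.42e-08) and 0.28 for Grm7 (adjusted p = 0.0124). Grm3 was then called too (0.96, adjusted p = 0.0350). Grm2, Grm3 and Grm8 exceeded the limit in no CA library, so the size of these 3 differences is not exact. Markers of other cells moved between these regions. Of 6 oligodendrocyte markers 5 were lower in DG (median -0.42) and 1 higher, of 6 interneuron markers 4 were lower and 1 higher, and of 6 pan-neuronal markers 5 were lower (median -0.71) and 1 higher. Summed pan-neuronal markers spanned 918 to 1491 CPM in DG, against 1380 to 4784 CPM in CA3 and 821.1 to 1519 CPM in CA1, and summed oligodendrocyte markers 429.4 to 680.6 CPM in DG, against 732.5 to 1252 CPM in CA3 and 375.3 to 669.6 CPM in CA1. Their part in the receptor differences was not tested. The Grm2 difference within mice averaged 1.94 ± 0.44 after FLASH 1x10Gy, 1.97 ± 0.40 after FLASH 3x10Gy, 1.47 ± 0.35 after CONV 1x10Gy, 1.61 ± 0.15 after CONV 3x10Gy and 1.57 ± 0.40 in CTRL (SD, n = 3 mice each).

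Against cortex, DG neurons had 2.21-fold more Grm2 (log2 difference 1.15, SE 0.0716, adjusted p = 4.22e-35, higher in 15 of 15 mice), although the lowest DG value lay below the highest cortical one. Grm3 was lower by -0.87 (SE 0.0769, adjusted p = 1.31e-21), in 15 of 15 mice and without overlap, which 1.34% of all genes showed in this direction. Grm8 was lower by -0.38 (SE 0.0831, adjusted p = 5.24e-05, lower in 13 of 15 mice), and Grm5 was higher by 0.22 (SE 0.0703, adjusted p = 0.00545, higher in 12 of 15). Grm7 differed by 0.07 (SE 0.0659, adjusted p = 0.426). In this comparison 47.4% of all genes were called, against 4 of the 5 receptor genes. The Grm5 call did not hold with the background share as a covariate (-0.0052, adjusted p = 0.977) after subtraction of the negative-probe mean (0.09, adjusted p = 0.456) or in the 3 CTRL mice alone (0.23, adjusted p = 0.372). The Grm8 call was lost after subtraction as well (-0.69, adjusted p = 0.196). The background share was 48.1% in DG and 59.0% in cortex. Of 6 markers in each list, 5 oligodendrocyte, 5 interneuron and 4 pan-neuronal markers were lower in DG than in cortex, and of 5 astrocyte markers 3 were lower and 1 higher. Their part in the receptor differences was not tested.

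CA against cortex separated all 5 tested genes, where 24.3% of all genes were called. Grm5 was higher in CA (0.45, SE 0.0623, adjusted p = 3.06e-10, higher in 14 of 15 mice). The Gi/o-coupled receptors were all lower in CA. Grm3 had a log2 difference of -0.96 (adjusted p = 5.89e-28) and Grm8 of -0.71 (adjusted p = 2.19e-14), both lower in 15 of 15 mice. Grm2 differed by -0.53 (adjusted p = 1.32e-08, lower in 14 of 15) and Grm7 by -0.23 (adjusted p = 0.00123, lower in 11 of 15). Grm2, Grm3 and Grm8 exceeded the limit of quantification in no CA library. In the 3 CTRL mice alone, Grm2 (-0.21, adjusted p = 0.684) and Grm7 (-0.14, adjusted p = 0.750) were no longer called. Here too 3 of 5 astrocyte, 3 of 6 oligodendrocyte and 4 of 6 interneuron markers were lower in CA. Of 6 pan-neuronal markers 4 were lower and 1 higher. The part of these markers was not tested.

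**Figure D3:**
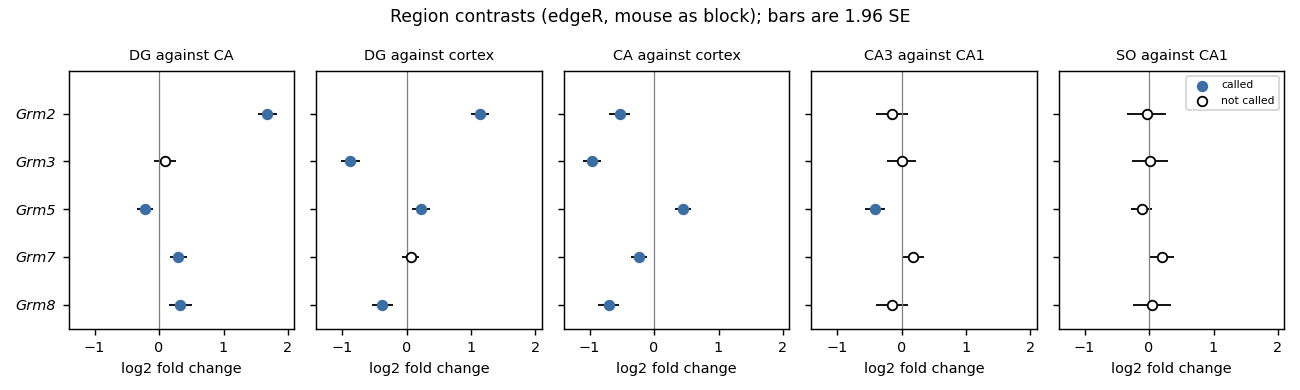
Log2 differences of the 5 tested receptor genes between regions, from edgeR with mouse as a block. Points are estimates, filled where the call passed the threshold and open where it did not, and bars are 1.96 SE. Grm2 stands at 1.68 in DG against CA and 1.15 in DG against cortex, Grm3 near -0.9 in both comparisons with cortex, and Grm5 is the gene with a difference past the threshold between CA3 and CA1.

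Within the hippocampal pyramidal fields, CA3 had 0.752-fold the Grm5 level of CA1 (log2 difference -0.41, SE 0.0762, adjusted p = 2.77e-06, lower in 13 of 15 mice). It was the sole receptor gene called, where 22.8% of all genes were, and the other 4 had differences between -0.15 and 0.18 (adjusted p between 0.128 and 1.00). After subtraction of the negative-probe mean Grm2 (-1.67, adjusted p = 0.0324) and Grm7 (0.34, adjusted p = 0.0360) were called as well, although Grm2 exceeded the limit in no library of either field. Oligodendrocyte markers were also higher in CA3 than in CA1 (6 of 6, median 0.62). Their summed levels were 732.5 to 1252 CPM in CA3 and 375.3 to 669.6 CPM in CA1. Of 6 pan-neuronal markers 4 were higher in CA3 and none lower (median 1.03). The part of these markers in the Grm5 difference was not tested. Between SO and CA1 no receptor gene was called (differences of -0.11 to 0.20). That comparison had 1 call among all genes by edgeR (0.00991%), 1 by DESeq2's Wald test and 544 genes at an unadjusted p under 0.05, none of them a receptor gene.

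Without the filter on low values, Grm4 could be tested too. It was lower in DG than in cortex (-0.33, adjusted p = 0.000823) and in CA than in cortex (-0.31, adjusted p = 0.00118), and differed by -0.02 between DG and CA (adjusted p = 0.898). Its median ratio to the negative probes was 1.55 in cortex and 1.05 to 1.41 in the other regions.

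The promoters of Grm2 and Grm3 are shown because these genes had their highest levels in different regions, DG and cortex. Of the 6 genes, 4 matched the RefSeq promoter table (mouse build GRCm38.p6, 250 bases before to 50 after the transcription start). Grm2 lies on chromosome 9 (106644534 to 106656109) and its promoter at chr9:106656060-106656359, minus strand. Grm3 lies on chromosome 5 (9485236 to 9725352) and its promoter at chr5:9725303-9725602, minus strand. Capitals mark the GC box, GGGCGG on either strand, which Sp1-type factors bind.
Grm2: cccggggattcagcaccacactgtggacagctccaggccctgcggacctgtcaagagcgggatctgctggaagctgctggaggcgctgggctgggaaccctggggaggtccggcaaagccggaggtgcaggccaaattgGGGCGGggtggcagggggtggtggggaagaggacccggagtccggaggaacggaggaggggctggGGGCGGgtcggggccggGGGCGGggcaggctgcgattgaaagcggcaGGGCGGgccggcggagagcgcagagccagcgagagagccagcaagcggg
Grm3: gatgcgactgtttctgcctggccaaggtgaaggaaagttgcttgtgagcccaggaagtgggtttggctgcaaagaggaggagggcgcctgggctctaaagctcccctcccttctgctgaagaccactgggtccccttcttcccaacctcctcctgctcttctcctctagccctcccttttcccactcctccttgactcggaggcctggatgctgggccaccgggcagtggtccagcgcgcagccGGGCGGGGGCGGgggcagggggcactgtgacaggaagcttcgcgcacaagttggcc
The Grm2 promoter holds 4 GC boxes at a GC content of 72.0%, and the Grm3 promoter 2 at 63.7%. Of 32851 promoters of this length 35.7% hold the motif, and the median GC content is 52.7%. Neither holds TATAAA, which 13.6% of promoters do. Neither holds, on either strand, TGACG, the core of the cyclic AMP response element (20.8% of promoters), or the E-boxes CAGATG (17.2%) and CACGTG (7.15%). These matches describe the letters and are not evidence of binding.

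Partner genes of the receptors were examined from the Gq and Gi/o routes, scaffolds and binding proteins, and partners across the synapse. Genes of glutamate and NAAG supply and removal were on the list too. Of the 48 partners listed, 42 were tested. In DG against CA, 7 were higher and 19 lower (median log2 difference -0.12, against -0.03 for all genes), where 23.6% of all genes were higher and 26% lower. Adcy1, a calcium-stimulated adenylyl cyclase, was higher by 1.81 (adjusted p = 7.57e-65), and the protein kinase C gene Prkcb (-1.31) and the G protein gene Gnao1 (-0.997) were lower. On the Gq side, the route of Grm5, 5 of 9 genes were lower and none higher. On the Gi/o side, the route of the other receptors, 6 of 17 were higher and 5 lower. In DG against cortex, 8 partners were higher and 21 lower (median -0.21, against -0.03), where 23.1% of all genes were higher and 24.2% lower. Adcy1 (1.55) and Kcnj6, a subunit of the potassium channels opened by Gi/o-coupled receptors (1.18), were higher, and Prkcb (-1.36) and the glutamate transporter gene Slc1a2 (-1.23) were lower.

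In CA against cortex, 12 partners were higher and 12 lower (median -0.01, against 0.00), where 11.3% of all genes were higher and 13% lower. Kcnj9, another subunit of those channels, was lower (-1.09), as was Slc1a2 (-0.90), and Ncdn, which encodes the receptor-binding protein neurochondrin (1.10), was higher. In CA3 against CA1, 12 were higher and 10 lower (median 0.01, against -0.01), where 11.8% of all genes were higher and 11% lower. Adenylyl cyclase 2 (Adcy2, -1.23) and the IP3 receptor Itpr1 (-0.97), which releases calcium downstream of Gq, were lower in CA3. Slc1a2 (1.14) and the vesicular glutamate transporter gene Slc17a7 (0.89) were higher. On the Gq side 2 of 9 genes were higher and 2 lower, and on the Gi/o side 5 of 17 were higher and 5 lower. No partner was called between SO and CA1.

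Over the 73 mouse and region sums, the genes most like each receptor gene were found by Pearson's r of log2 CPM. For Grm2 they were Fam163b (0.866), Slc4a4 (0.845) and Cxcl12 (0.838), and for Grm5 Camkv (0.829) and Ube2e2 (0.829). Grm3 was followed by Cspg5 (0.748), Arpp19 (0.737) and Stmn1 (0.726). The likeness was weaker for Grm8 (Dlg1 0.661, Atp2b4 0.658, 4930578G10Rik 0.643) and Grm7 (Cadm1 0.620, Gabbr2 0.619, Smarca2 0.591). Between receptor genes, r was highest for Grm3 with Grm8 (0.516) and lowest for Grm3 with Grm5 (-0.510). The sums share mice, slides, regions and depth, so that these values are descriptive.

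The second question was whether irradiation changed receptor expression 24 h later. Groups were compared within each region, with slide as a term, and all regions except SO had 3 mice per group. Slides were not balanced: FLASH 1x10Gy and CONV 1x10Gy shared a slide with a CTRL mouse only on slide 4, and slides 3 and 5 held no CTRL mouse. FLASH 1x10Gy and CONV 1x10Gy met on slides 4 and 5 only. CONV 1x10Gy mouse C was on slide 3, so with the slide term it was set against FLASH 1x10Gy only through other groups. Of 150 tests over 5 genes, 5 regions and 6 comparisons, 2 were called and 12 had an unadjusted p under 0.05 by edgeR. Of all genes, 1.75% to 24.6% had such an unadjusted p, depending on region and comparison. Both calls were in DG, for FLASH 1x10Gy against CONV 1x10Gy, where 8.48% of all genes were called.

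In DG, Grm2 stood at 143.9, 177.3 and 134.6 CPM after FLASH 1x10Gy (mice A, B and C), against 79.3, 96.99 and 132 CPM after CONV 1x10Gy. The FLASH values all lay above the CONV values, as did those of 8.41% of all genes, and mouse C of CONV 1x10Gy came within 3 CPM of the lowest FLASH mouse. The log2 difference was 0.72 (SE 0.171, edgeR adjusted p = 0.00383), with 0.86 within slide 4 and 0.67 within slide 5. By this test Grm2 was higher after FLASH than after CONV at the single dose. The direct comparison within slides left out CONV 1x10Gy mouse C, at 132 CPM, since slide 3 held no FLASH 1x10Gy mouse. The same gene stood at 132.9, 161.1 and 177.7 CPM after FLASH 3x10Gy, 126.6, 118.5 and 122 CPM after CONV 3x10Gy and 173.6, 107.9 and 90.7 CPM in CTRL. The 3-fraction groups did not overlap (5.34% of all genes), but their difference of 0.36 (SE 0.180) did not pass the test (adjusted p = 0.987), and it was 0.07, 0.44 and 0.54 within slides 1, 2 and 3. Against CTRL, Grm2 had a difference of 0.54 after FLASH 1x10Gy (SE 0.218, adjusted p = 0.111) and -0.17 after CONV 1x10Gy (SE 0.214, adjusted p = 0.998). CTRL mouse A, at 173.6 CPM, lay within both FLASH groups and above every CONV value.

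Grm5 stood at 265.5, 246.6 and 254 CPM in DG after FLASH 1x10Gy, against 202.4, 162 and 223 CPM after CONV 1x10Gy. The FLASH values all lay above the CONV values, as did those of 8.41% of all genes. The log2 difference was 0.51 (SE 0.160, edgeR adjusted p = 0.0313), with 0.39 within slide 4 and 0.63 within slide 5. CONV 1x10Gy mouse C, at 223 CPM, was on slide 3, without a FLASH 1x10Gy mouse. Values after FLASH 3x10Gy were 233.7, 235.7 and 287.8 CPM and after CONV 3x10Gy 222.2, 217.2 and 239.6 CPM, which overlapped. CTRL mice had 230.6, 168.9 and 167.5 CPM. Both FLASH groups lay above CTRL without overlap, as did 9.14% (FLASH 1x10Gy) and 9.88% (FLASH 3x10Gy) of all genes. The differences did not pass the test (0.60, SE 0.205, adjusted p = 0.0631, and 0.29, SE 0.155, adjusted p = 0.767), where 5.54% and 0% of all genes were called. FLASH 3x10Gy against CONV 3x10Gy had 0.00991% of all genes called in DG, and each CONV group against CTRL 0%.

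The remaining genes gave no call in DG. Grm8 stood at 51.4, 63.0 and 44.5 CPM after FLASH 1x10Gy, against 58.4, 68.0 and 88.0 CPM after CONV 1x10Gy (log2 difference -0.45, SE 0.202, adjusted p = 0.149). At 3 fractions it stood at 55.5, 52.2 and 51.7 CPM after FLASH 3x10Gy and 75.9, 92.2 and 70.55 CPM after CONV 3x10Gy, and CTRL mice had 54.8, 41.9 and 70.52 CPM. The FLASH 3x10Gy values all lay below the CONV 3x10Gy values, as did those of 3.97% of all genes, and the CONV 3x10Gy values all lay above CTRL, as did those of 5.1%, with the closest mice at 70.55 and 70.52 CPM. Neither difference passed the test (-0.44, SE 0.231, adjusted p = 0.987, and 0.42, SE 0.251, adjusted p = 1.00). Within slides, FLASH minus CONV at the same number of fractions was -0.45, -0.82 and -0.45 on slides 1, 2 and 3. It was -0.19 on slide 4 and -0.36 on slide 5. How often other genes keep the same sign over all slides was not counted. Grm7 differed by 0.08 (SE 0.161, adjusted p = 0.796) between FLASH 1x10Gy and CONV 1x10Gy.

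**Figure D4:**
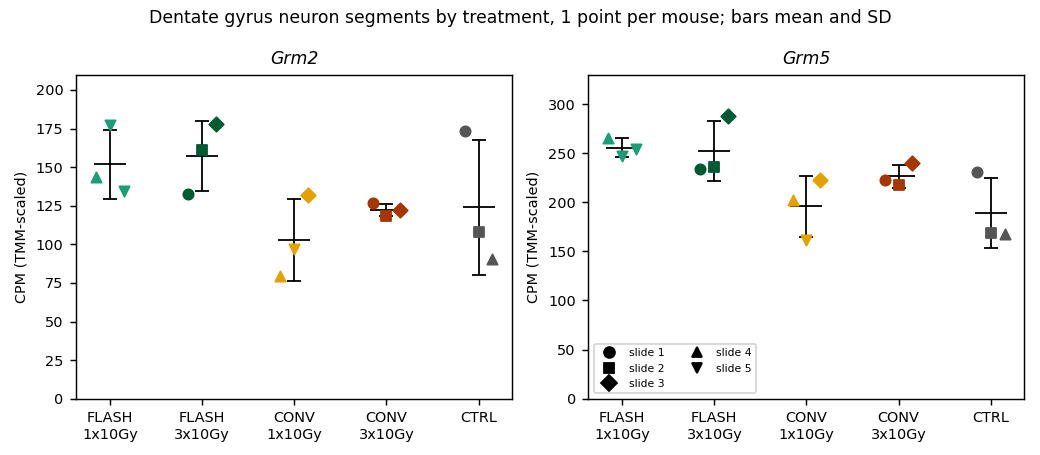
Level of Grm2 and Grm5 in DG neuron segments (CPM after TMM scaling) in each mouse, by treatment, with CTRL at the right. Points are mice (n = 3 per group), shaped by slide, and bars give the mean and SD. After FLASH 1x10Gy, Grm2 (134.6 to 177.3 CPM) and Grm5 (246.6 to 265.5 CPM) lie above CONV 1x10Gy (79.3 to 132 and 162 to 223 CPM).

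Both DG calls depended on how slide and background entered the fit. Without the slide term the differences were 0.57 for Grm2 (adjusted p = 0.474) and 0.38 for Grm5 (adjusted p = 0.489), and the comparison then had 0 calls among all genes (1006 at an unadjusted p under 0.05), against 856 with it and 251 by DESeq2's Wald test with slide. With slide as a random intercept, as in the mixed model of the study's methods, they were 0.57 (adjusted p = 0.367) and 0.42 (adjusted p = 0.297). The background share averaged 43.1 ± 4.85% in FLASH 1x10Gy and 48.8 ± 10.4% in CONV 1x10Gy (SD, n = 3 each), and with it as a covariate the differences were 0.49 (adjusted p = 0.754) and 0.43 (adjusted p = 0.741). Grm5 also missed the threshold by DESeq2's Wald test (0.50, adjusted p = 0.0506) and after subtraction of the negative-probe mean (0.44, adjusted p = 0.177), where Grm2 kept its call (0.71, adjusted p = 0.0336, and 0.93, adjusted p = 0.0382). The call of Grm2 was lost without CONV 1x10Gy mouse B (0.85, adjusted p = 0.298) or FLASH 1x10Gy mouse A (0.64, adjusted p = 0.0697), and that of Grm5 in 6 of 15 refits that each left out a mouse (0.44 to 0.57, adjusted p between 0.0751 and 0.654), those without CTRL mouse C, CONV 1x10Gy mice B and C and FLASH 1x10Gy mice A, B and C.

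Cell type markers moved in the same comparison. Of 6 pan-neuronal markers 1 was higher (Snap25, 0.63), of 5 astrocyte markers 2 were higher (Gfap 0.59, Gja1 0.74) and 1 lower (S100b, -0.56), and of 6 interneuron markers 2 were lower (Sst -0.92, Npy -0.70). Pecam1 of the endothelium (-0.72) and Pou3f1 of CA1 (-0.68) were lower too. No granule cell marker was called. Summed pan-neuronal markers ranged over 1305 to 1433 CPM after FLASH 1x10Gy and 923.9 to 1461 CPM after CONV 1x10Gy, summed granule cell markers over 665.4 to 789.2 and 558.9 to 707 CPM, and summed interneuron markers over 378.4 to 414.5 and 431.2 to 461.3 CPM. Their part in the receptor differences was not tested. Of the 42 partners tested, 2 were higher and none lower, a share near that of all genes (3.71% higher and 4.76% lower): Adcy1 by 0.69 (adjusted p = 0.00416) and Ncdn by 0.81 (adjusted p = 0.00173). Against CTRL, where 2.55% of all genes were higher and 2.99% lower, 4 were higher after FLASH 1x10Gy: Adcy1 (0.75), Ncdn (0.93), Gnao1 (0.68) and Gnaq (0.68).

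In cortex no receptor gene was called in any treatment comparison, where edgeR called between 0% and 0.0594% of all genes. Grm2 stood at 72.7, 60.5 and 61.7 CPM after FLASH 1x10Gy and 66.2, 72.8 and 95.9 CPM after FLASH 3x10Gy, against 67.1, 38.0 and 32.4 CPM in CTRL. CTRL mouse A lay within both FLASH groups and the other 2 CTRL mice below them. The log2 differences were 0.62 for FLASH 1x10Gy (adjusted p = 0.309) and 0.52 for FLASH 3x10Gy (adjusted p = 1.00). Without CTRL mouse A they were 0.90 (adjusted p = 0.0230) and 1.14 (adjusted p = 0.00327), and without CTRL mouse C the first was -0.062 (adjusted p = 0.999). No other CTRL mouse shared a slide with a mouse of FLASH 1x10Gy or CONV 1x10Gy. The refit without CTRL mouse C therefore linked FLASH 1x10Gy to CTRL only through CONV 1x10Gy mouse C on slide 3. CTRL mouse C had a background share of 76.7% in cortex and CTRL mouse A 51.8%. Grm7 stood at 147.3, 159.8 and 157.3 CPM in cortex after FLASH 1x10Gy, against 163.5, 126.6 and 86.9 CPM in CTRL (0.71, adjusted p = 0.218). Leaving out CTRL mouse A raised the number of receptor calls over all treatment comparisons to 7, against 2 with all mice. The share of all genes called in that refit was not set beside it. The 7 calls therefore cannot be read as particular to the receptor genes.

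In CA3, CA1 and SO, none of 90 tests of receptor genes had an unadjusted p under 0.05 by edgeR, and the smallest adjusted p was 0.351, 0.396 and 0.364. Such an unadjusted p was found for 3.57% to 21.4% of all genes, depending on region and comparison. Over all genes, FLASH 1x10Gy against CONV 1x10Gy had 8.5% called in CA3, 1.08% in CA1 and 1.17% in SO, and FLASH 1x10Gy against CTRL 3.45%, 0.198% and 0.178% in the same order. FLASH 3x10Gy against CONV 3x10Gy had 0.0198%, 0.00991% and 0%, and FLASH 3x10Gy against CTRL 0%, 0.00991% and 0.0892%. CONV 1x10Gy against CTRL had 0%, 0.0495% and 0.0495%, and CONV 3x10Gy against CTRL 0%, 0% and 0.178%. The log2 differences ranged over -0.46 to 0.53 in CA3, -0.83 to 0.55 in CA1 and -1.13 to 0.64 in SO, with median SEs of 0.24, 0.31 and 0.38. Grm4, tested without the filter, gave 0 calls in 30 treatment tests and 1 unadjusted p under 0.05 (SO, FLASH 1x10Gy against CTRL, adjusted p = 0.529).

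Whether irradiation altered the contrast between regions was tested within mice. None of 40 interactions was called by edgeR, the single tool run for this, and 3 had an unadjusted p under 0.05: Grm2 for cortex against CA after FLASH 3x10Gy (0.61, adjusted p = 1.00), and Grm3 (-0.64, adjusted p = 0.516) and Grm5 (0.50, adjusted p = 0.530) for cortex against CA after CONV 1x10Gy. Of all genes, 0% or 0.00991% were called in each of the 8 interactions, and 3.61% to 7.63% had an unadjusted p under 0.05. No interaction of DG against CA passed the test for Grm2 or Grm5, but each compared an irradiated group with CTRL. The difference between FLASH 1x10Gy and CONV 1x10Gy was not tested as an interaction.

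The last comparison set astrocyte (GFAP) segments against neuron (NeuN) segments of the same hippocampal regions, in 30 pairs from 11 mice. Kept astrocyte libraries numbered 10 in DG, 10 in CA3, 6 in CA1 and 5 in SO, so the regions summed differed between mice. Here 72.6% of all genes were called, and so were all 5 receptor genes tested. Grm5 averaged 84.1 ± 17.0 CPM in astrocyte segments and 242.1 ± 30.9 CPM in neuron segments (SD, n = 11 mice), a log2 difference of -1.60 (SE 0.0794, adjusted p = 1.64e-28) that was negative in 11 of 11 mice. Grm7 (102.3 ± 13.7 and 137.9 ± 12.3 CPM, -0.43, adjusted p = 3.15e-07) and Grm2 (65.1 ± 10.6 and 81.1 ± 25.3 CPM, -0.32, adjusted p = 0.000345) were also lower in astrocyte segments, although Grm2 was higher there in 4 of 11 mice and Grm7 in 1. Grm3 (68.8 ± 15.6 and 54.3 ± 7.41 CPM, 0.44, adjusted p = 7.41e-06) and Grm8 (66.9 ± 10.9 and 55.2 ± 7.14 CPM, 0.29, adjusted p = 0.00131) were higher, each in 9 of 11 mice. All 5 tested astrocyte markers were higher (Gfap by 1.91) and all 6 pan-neuronal markers lower in the astrocyte segments. In hippocampal neuron segments Grm2 exceeded the limit of quantification only in DG. The part of the region make-up in its difference was not tested.

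The background differed between these segments. Its share had a median of 84.5% (69.5 to 93.2) in astrocyte segments and 58.0% (36.1 to 75.3) in neuron segments, and in astrocyte segments the ratio to the negative probes was 1.04 for Grm2, 1.07 for Grm3, 0.953 for Grm4, 1.20 for Grm5, 1.64 for Grm7 and 1.06 for Grm8. After subtraction of the negative-probe mean, the higher levels of Grm3 (0.31, adjusted p = 0.700) and Grm8 (0.17, adjusted p = 0.793) no longer passed the test. Grm3 exceeded the limit of quantification in 1 of 31 astrocyte libraries and Grm8 in none. Without the filter on low values the Grm8 call was lost (0.08, adjusted p = 0.381), and Grm4 was not called (0.09, adjusted p = 0.372). Grm4, above the limit in no astrocyte library, was also higher in astrocyte segments in 9 of 11 mice (mean log2 difference 0.32).

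**Figure D5:**
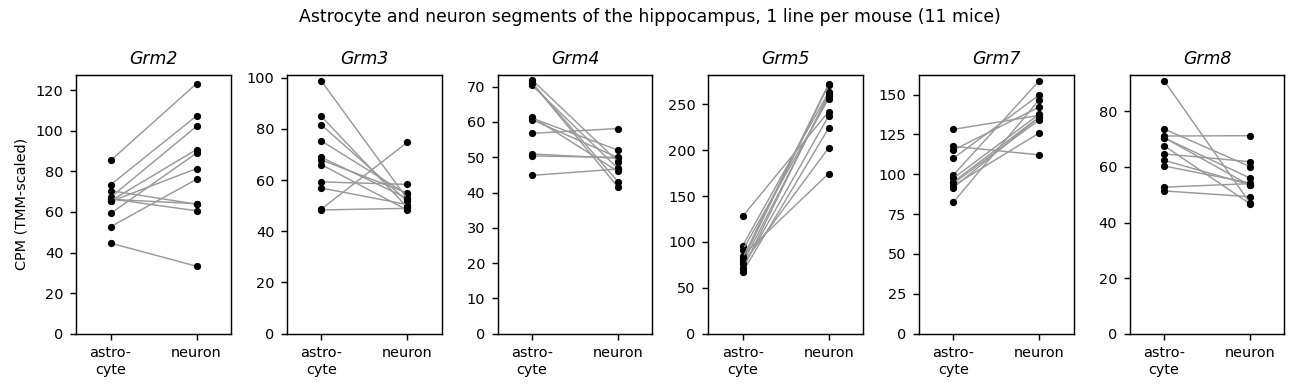
Level of the receptor genes (CPM after TMM scaling) in astrocyte segments and neuron segments of the hippocampus. Lines join the 2 segments of 1 mouse (n = 11). Grm5 lies below the neuron value in 11 of 11 astrocyte sums, and Grm3, Grm4 and Grm8 each lie above it in 9 of 11.

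In the remaining kinds of segment, receptor transcripts were rarely above the limit of quantification. Grm5 exceeded it in 4 of 14 vessel libraries and 16 of 101 libraries of the remaining cells, and Grm7 in 3 of 14 and 21 of 101. Grm2 did so in 4 of 101 libraries of the remaining cells, Grm3 in 1 of 14 vessel libraries, and Grm4 and Grm8 in none of either kind.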

How the data were processed

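Gene counts were deposited by the authors as one file per segment, made with the GeoMx NGS Pipeline 2.0.0 (reads deduplicated by molecular identifier). The submitters' processing notes also name R 4.4.0 and edgeR. The read, saturation, negative-probe and detection thresholds of the study's methods (5% of genes above the limit of quantification) left out 52 of 285, 3 of them neuron segments. The study's minimum nuclei number and minimum area of a segment were not used here. Genes above the limit in 5% of kept libraries were tested (10095). Neuron counts were summed per mouse and region and fitted with edgeR 4.0.16 (R 4.3.3, TMM, robust quasi-likelihood, 2-sided, adjusted p threshold 0.05). Region, interaction and segment fits had mouse as a block, since the labels tie regions to a mouse. Deviations from region means correlated with a median r of 0.153 within mice (142 pairs) and -0.0123 between mice. Treatment fits used all 5 groups of a region with slide as a factor. Fits were also run on simulated counts that had no mouse or slide effects, no region differences except those put in, and the same spread setting for all genes. The changed genes were drawn from the more abundant of those tested, so recovery among the least abundant was not measured. Of genes changed 1.5-fold and 2-fold, the DG fit of FLASH 1x10Gy against CONV 1x10Gy recovered 7.46% and 61.2%. The interaction of DG against CA after FLASH 1x10Gy recovered 4.48% and 47.8%. DG against CA recovered 100% of both, and astrocyte against neuron segments 85.1% and 100%. A missing treatment or interaction call therefore does not show that no change of this size occurred. All 6 receptor genes were named throughout, as were up to 4 partners per region contrast by p, 3 most similar genes per receptor and 2 markers per list, except for a few genes that are not reported here. Genes and lists were chosen with earlier results of these data known. Alternatives changed the scaling, gene filter, test (DESeq2 1.42.0, limma 3.58.1, lme4 1.1.37), background treatment, slide or plate term and block, or left out a mouse. Labels name 15 mice. A probe outside the panel list held 0.00869% of counts and was left out.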

Additional observations from a re-analysis of the deposited data

How the results depend on the processing

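The mouse block rests on the labels. Without the replicate block the Grm2 difference between DG and CA was 1.66, and with mouse as a random block 1.64, and neither changed a region call. With the background share as a covariate, the number of receptor genes called in DG against CA was 2, and in CTRL mice alone 2. After subtraction of the negative-probe mean it was 2 in DG against cortex, 3 in CA3 against CA1 and 3 in astrocyte against neuron segments. CA against cortex had 3 calls in CTRL mice. The strict gene filter, which leaves only Grm5 and Grm7 testable, gave 2, 1, 2 and 2 calls in DG against CA, DG against cortex, CA against cortex and astrocyte against neuron segments.

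Treatment calls numbered 0 when slide was dropped, made a random block or replaced by plate, and with the background covariate or the mixed model, and 1 with DESeq2, subtraction or the strict filter. Leaving out a mouse gave 0 to 7, without the share of all genes called in those refits for comparison. Signs turned only for small or uncalled differences, with 1 called exception. The called one was Grm5 in DG against cortex (-0.0052 with the covariate). Grm7 there had -0.046 after subtraction and -0.0083 with the covariate. In CA3 against CA1, Grm2 had 0.019 in CTRL mice, and Grm3 -0.72 after subtraction, -0.036 with the covariate, -0.0082 with all neuron libraries, -0.14 in CTRL mice and -0.10 to 0.08 with a mouse left out. That Grm3 difference was -0.0025 without mouse C of CONV 3x10Gy, -0.059 without mouse B of FLASH 3x10Gy, -0.020 and -0.012 without mice A and C of CONV 1x10Gy, -0.0175 without CTRL mouse C and -0.0023 without mouse B of FLASH 1x10Gy. In cortex, Grm2 in FLASH 1x10Gy against CTRL had -0.17 with the covariate and -0.062 to 1.09 with a mouse left out. Causes were not tested beyond what each setting changes. Precision is limited by 3 mice per group, by low counts (Grm2 rested on a median of 8 counts in SO) and by background, which is part of every level.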
